A study of Mus musculus with 6 samples.

Results

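In whole mouse lung, 5543 of 15679 genes (35.4%) showed a larger response to intranasal histamine-releasing factor (HRF) in wild type (WT) mice than in either kind of mouse labelled as a knockout, FcRg KO or FceRIa KO. The response is the log2 ratio of the HRF array to the PBS array of the same genotype, and the genes compared are those well above background on all 6 arrays. Because 1 of the 3 ratios is always the highest, the description concentrates on the 154 genes (0.982%) whose WT ratio exceeded both other ratios at least 2-fold, which is 1 on the log2 scale. These genes were ranked by the difference of responses, the WT ratio minus the mean of the other 2 ratios. All these values chose the genes, so they are given as a description without a test.

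Whole lungs were homogenised, and their total RNA, carrying the Cy3 dye, was measured on 6 Agilent 1-colour arrays, 1 for each of 6 groups. All mice were of the C57BL/6 strain: WT, FcRg-/- and FceRIa-/- mice, each given PBS or mouse HRF, described as mHRF-His, through the nose. The labels give no age, sex, dose or time after the challenge, nor whether 1 mouse or a pool of mice was used per array. There is 1 array per group, so no ratio has a replicate check, and each genotype's ratio rests on its own PBS array. In whole lung, fewer cells of a type and less RNA per cell cannot be told apart.

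HRF, the product of Tpt1, is an abundant cytoplasmic protein that is also secreted in allergic reactions and can bind a subset of IgE antibodies. IgE sits on mast cells and basophils in the high-affinity receptor, whose alpha chain (Fcer1a) holds the antibody, while the gamma chain (Fcer1g) carries the activating signal and does the same for several IgG receptors and for other receptors that pair with it. Cells activated this way release mediators, cytokines and chemokines, and the lung vessels, epithelium and lymphocytes respond with adhesion molecules, mucus and type 2 cytokines.

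The labels were checked against the arrays before the comparison. Club cell and alveolar markers were high on all arrays, with Scgb1a1 and Sftpa1 among them, as the tissue label says. Fcer1g stood between 3.93 and 4.61 on every array, where 0 marks an array's 75th percentile, and Fcer1a stood between -4.70 and -4.19 on the WT arrays and those labelled FcRg KO but at -0.90 and -1.16 on the FceRIa KO-labelled pair. A lower level of the targeted gene therefore bears out neither label, and the position of the probes relative to the deletions is unknown here. B cell markers were low on both arrays labelled FcRg KO: the summed level of 12 markers, on the linear scale with the 75th percentile as 1, was 5.10 and 5.47 there, against 33.5 and 38.9 in WT and 35.2 and 43.6 on the FceRIa KO-labelled pair. Of the 9 B cell markers compared, 8 were at least 2-fold below WT on both arrays labelled FcRg KO (background 0.383%), and the median difference of responses of the list was close to 0. Summed adipocyte markers were 218 on the FcRg KO PBS array and 109 on its HRF array, 112 and 230 on the FceRIa KO-labelled pair, and 136 and 127 in WT. Their part in the differences described here was not tested.

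The 2-fold margin was reached above both other ratios more often in WT than on the other pairs put in its place: 81 genes (0.517%) on the FcRg KO-labelled pair and 84 (0.536%) on the FceRIa KO-labelled pair. Below both others, the WT ratio was at least 2-fold lower for 80 genes (0.51%), the ratio labelled FcRg KO for 163 (1.04%) and the FceRIa KO-labelled pair for 28 (0.179%). Of the genes past the margin in WT, 65.8% were thus higher, and the share was 85.9% with scaling on the median, which moved the median difference over all genes from -0.02 to 0.20, and 90.6% with normexp and quantile normalization. The share fell below that of the lower genes in 3 other settings, to 33.8% (223 higher and 437 lower) where 1 array above background sufficed, to 27.3% (283 and 754) with no filter on background, and to 49.7% (452 and 457) at a 1.5-fold margin. By any amount, WT was above both others for 35.4% of genes and below both for 6192 (39.5%); above both stood the FcRg KO-labelled pair for 36.8% and the FceRIa KO-labelled pair for 27.8%. No gene passed limma with a WT by HRF term and Benjamini-Hochberg adjustment at 0.05 (0 higher and 0 lower of 15679, 0.0%, lowest adjusted p = 0.489), with 1577 genes at an unadjusted p under 0.05, of which 710 were higher and 867 lower in WT. That fit has 1 residual degree of freedom, the difference between the responses of both labelled knockouts, so it holds no spread between mice. The values that follow passed no test. Counts from gene lists stand against 0.982% of all genes for members and 35.4% for WT above both others.

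**Figure D1:**
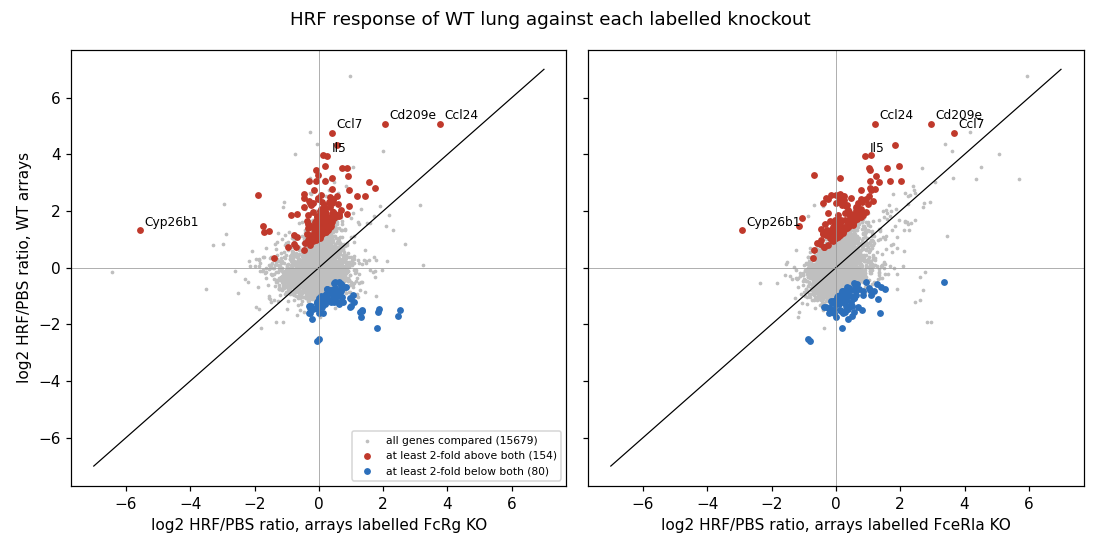
Each point is 1 gene, with its log2 ratio of HRF to PBS in WT on the vertical axis and the ratio on the arrays labelled FcRg KO (left) or FceRIa KO (right) on the horizontal axis; the diagonal marks equal ratios. The 154 genes at least 2-fold above both ratios (red) have a median WT ratio of 1.71, and the 80 at least 2-fold below both (blue) one of -1.13.

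Among the 154 genes, the median ratio was 1.71 in WT, 0.06 on the FcRg KO-labelled pair and 0.25 on the FceRIa KO-labelled pair. WT ratios ranged from 0.36 to 5.08 and differences of response from 1.03 to 5.57. WT stayed above both others for all 154 with scaling on the median, normexp and quantile normalization, the deposited value table and the mean over a gene's probes, and 112 kept the 2-fold margin in all 4 settings. These settings rework the same 6 arrays, and the genes were chosen with this margin, so staying above both others is no separate check. The WT ratio was at least 2-fold up for 143 of the 154 (2.23% of all genes), the FcRg KO ratio for 6 (0.51%) and the FceRIa KO ratio for 19 (1.12%). The FceRIa KO ratio lay above the FcRg KO ratio for 106 of the 154, against 7616 of all 15679 genes. The median of the set was thus near 0 on each of the other pairs, taken separately. Single ratios ranged from -5.56 to 3.77 on the FcRg KO-labelled pair and from -2.93 to 3.66 on the FceRIa KO-labelled pair. Ratios at least 2-fold up were more frequent on the FceRIa KO-labelled pair, in the set as over all genes.

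A difference of responses can come from the HRF arrays or from the PBS arrays, so each was split into the WT level minus the mean of both other levels on the HRF arrays, less the same on the PBS arrays. The median part on the HRF arrays was 1.37 and that on the PBS arrays -0.22. The WT HRF array carried the highest of the 3 HRF levels for 147 of the 154 genes (33.8% of all genes), at least 2-fold above both others for 87 (1.01%). The WT PBS array carried the lowest of the PBS levels for 80 (34.8% of all genes), at least 2-fold below both others for 9 (0.0702%). For 127 of the 154 the part on the HRF arrays was the larger one, and for the others the part on the PBS arrays was larger, with a low WT PBS level. The first kind includes the cytokines, chemokines and vessel genes described next, and the second includes Cyp26b1, Lrat, Syt10 and several neutrophil genes.

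**Figure D2:**
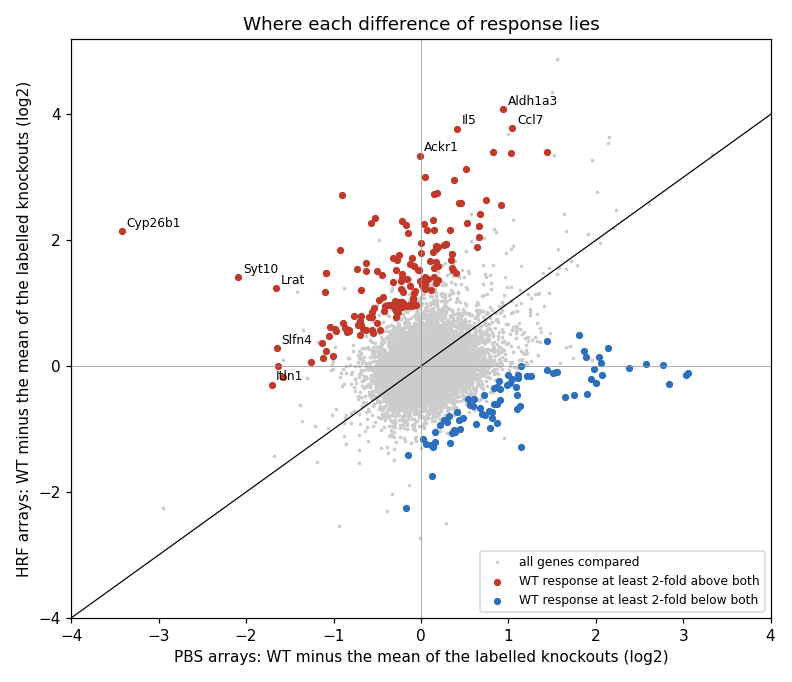
The horizontal axis gives the WT level minus the mean of both labelled knockouts on the PBS arrays and the vertical axis the same on the HRF arrays, in log2 units, for all genes (grey), the 154 genes above both ratios (red) and the 80 below both (blue). Il5, Ackr1 and Aldh1a3 lie high on the vertical axis near or right of 0, while Cyp26b1, Syt10, Lrat, Slfn4 and Itln1 lie far to the left, and the blue points spread to the right with a median of 0.90 on the PBS axis.

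Promoter sequences are shown for members chosen among the cytokine, vessel and signal feedback genes of the set, to show the stretch that their transcription starts from. They span 250 bases before to 50 after the first listed start of the gene, are given 5' to 3' on the gene's strand, and come from RefSeq with build GRCm38.p6. Il4 has 2 listed starts, and the stretch around the other was not read. Capitals mark TTCNNNGAA, the core of STAT sites, or TGANTCA, the core of AP-1 sites, searched on both strands. Il5 is shown as a member without either of them in this window, and Tnfaip6 as one with both. The promoters shown carry these motifs more often than those of the members in general, whose shares are given below the sequences.
Il5, chr11:53720544-53720843, plus strand: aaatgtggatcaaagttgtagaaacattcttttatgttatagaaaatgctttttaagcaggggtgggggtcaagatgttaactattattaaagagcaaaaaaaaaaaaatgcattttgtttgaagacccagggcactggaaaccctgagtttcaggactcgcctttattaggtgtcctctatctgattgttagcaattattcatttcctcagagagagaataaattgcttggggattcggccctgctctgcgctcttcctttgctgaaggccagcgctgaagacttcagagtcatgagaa
Il4, chr11:53617289-53617588, minus strand: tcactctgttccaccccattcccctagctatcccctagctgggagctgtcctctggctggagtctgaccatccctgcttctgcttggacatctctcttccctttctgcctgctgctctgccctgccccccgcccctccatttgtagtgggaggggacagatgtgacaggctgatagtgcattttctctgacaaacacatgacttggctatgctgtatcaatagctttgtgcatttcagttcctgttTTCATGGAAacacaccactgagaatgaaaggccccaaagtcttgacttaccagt
Ifng, chr10:118440796-118441095, plus strand: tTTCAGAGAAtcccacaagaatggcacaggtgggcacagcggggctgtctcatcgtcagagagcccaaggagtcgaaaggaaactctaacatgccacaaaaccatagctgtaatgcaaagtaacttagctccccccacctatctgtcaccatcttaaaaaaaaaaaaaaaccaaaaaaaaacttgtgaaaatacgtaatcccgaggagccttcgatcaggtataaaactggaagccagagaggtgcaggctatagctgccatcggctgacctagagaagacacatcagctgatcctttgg
Selp, chr1:164115014-164115313, plus strand: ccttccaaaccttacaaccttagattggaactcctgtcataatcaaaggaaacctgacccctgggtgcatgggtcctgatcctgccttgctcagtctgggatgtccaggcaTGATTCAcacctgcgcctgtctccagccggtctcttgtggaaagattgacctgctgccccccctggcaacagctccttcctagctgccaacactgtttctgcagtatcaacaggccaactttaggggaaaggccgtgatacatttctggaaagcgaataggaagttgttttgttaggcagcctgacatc
Socs3, chr11:117969317-117969616, minus strand: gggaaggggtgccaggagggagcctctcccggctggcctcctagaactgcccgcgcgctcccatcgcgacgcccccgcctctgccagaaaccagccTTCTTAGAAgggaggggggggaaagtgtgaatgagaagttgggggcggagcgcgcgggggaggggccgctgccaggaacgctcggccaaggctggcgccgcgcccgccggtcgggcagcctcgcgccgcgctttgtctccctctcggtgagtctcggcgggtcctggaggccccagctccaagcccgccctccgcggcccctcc
Tnfaip6, chr2:52037863-52038162, plus strand: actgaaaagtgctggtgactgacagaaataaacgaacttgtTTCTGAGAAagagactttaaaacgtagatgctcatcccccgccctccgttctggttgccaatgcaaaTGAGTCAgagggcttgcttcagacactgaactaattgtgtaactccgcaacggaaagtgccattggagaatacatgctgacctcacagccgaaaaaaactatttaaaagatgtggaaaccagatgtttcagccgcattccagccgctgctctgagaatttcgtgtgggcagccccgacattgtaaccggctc
A promoter was found for 123 of the 154 genes and for 12460 of all genes compared. TTCNNNGAA was present in 12.2% of the members' promoters and 7.26% of all, TGANTCA in 13.0% and 5.71%, and the same core with 1 more free base (TTC and GAA 4 bases apart), the spacing preferred by STAT6, in 8.94% and 5.50%. A loose core of NF-kB sites, GGG and CC with 5 free bases between them, was present in 58.5% and 64.4%. At least 1 of the first 3 was found in 36 members (29.3%), against 17.1% of all promoters. These motifs can overlap each other, a match is a description of the letters only, and the shares carry no test.

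**Figure D3:**
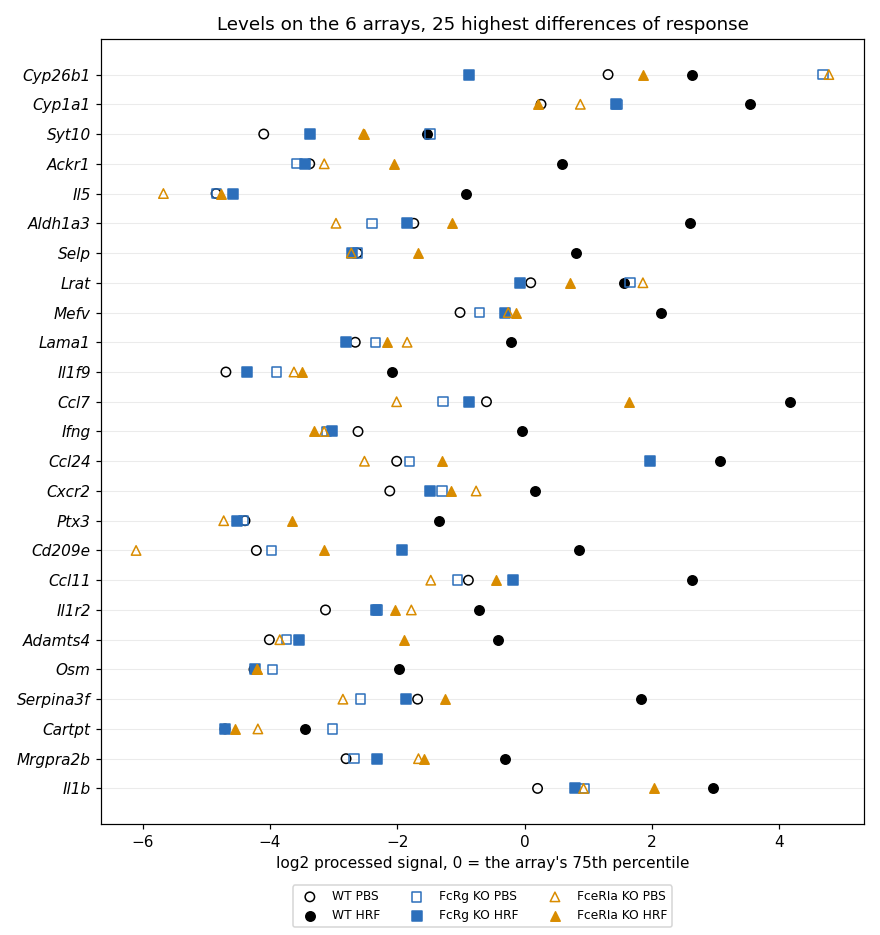
Levels on the 6 arrays (log2 of the processed signal, 0 = the 75th percentile of the array) of the 25 genes with the highest differences of response among the 154, in order of that difference; open symbols are PBS arrays and filled symbols HRF arrays. The WT HRF array (filled circle) is the highest HRF level in each row, and in the rows of Cyp26b1 and Lrat the open symbols of both labelled knockouts lie above the open circle.

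Type 2 cytokines were among the secreted signals of the set, Il5 with the highest difference of them and Il4 and Il33 with lower ones. Il5, the growth and survival factor of eosinophils, stood at -4.85 on the WT PBS array and -0.91 on the WT HRF array, -4.85 and -4.59 on the FcRg KO-labelled pair, and -5.68 and -4.78 on the FceRIa KO-labelled pair. Only the WT HRF array was high, and the other 5 levels lay within about 1 log2 unit of each other. The difference of responses was 3.35, or 10.2-fold. Il4, which drives IgE class switching and Th2 differentiation, lay at -3.80 and -1.64 in WT, -3.37 and -2.45 on the FcRg KO-labelled pair, and -4.19 and -3.87 on the FceRIa KO-labelled pair. Its ratio was thus 2.17 in WT, 0.92 and 0.32 on the others. Il33, an alarmin that epithelial and stromal cells release, stood at 3.07 and 4.61 in WT, 3.26 and 3.44, and 2.79 and 3.31 (difference 1.19). These 3 are members among the 6 genes compared of the list of type 2 cytokines and alarmins, whose median difference was 0.69 beside -0.02 over all genes, and 0.08 over the genes of the list with a mean level above -3.

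Il13, the cytokine behind mucus and airway responses, did not reach the background threshold on the 3 PBS arrays and could not enter the set. Its level was -0.84 on the WT HRF array, -4.24 on the FcRg KO HRF array and -6.11 on the FceRIa KO HRF array, so that it was at least 56.9-fold above PBS in WT, and its WT HRF level was 10.5-fold and 38.5-fold above the other HRF arrays, where it was well above background. A bound written "at least" sets the bright level against the higher of the dim level and the lowest level well above background on that array. Genes given by bounds entered through their WT HRF level, so these folds are a description only. Among the type 2 cytokine receptors, Il4ra, the shared chain of the IL-4 and IL-13 receptors, was the sole member among 13 genes (1.31 in WT, -0.04 and 0.04 on the others), although a second Il4ra probe gave 0.28, -0.01 and 0.32, with WT not above both.

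Chemokines that draw eosinophils and Th2 cells formed the list with the highest median difference, 1.30. The WT ratio was above both others for all 8 of its genes compared, and 5 passed the 2-fold margin. Ccl24, an eotaxin, lay at -2.01 and 3.07 in WT, -1.81 and 1.96 on the FcRg KO-labelled pair, and -2.52 and -1.30 on the FceRIa KO-labelled pair. It is the member with the highest FcRg KO ratio of the set, 3.77, and 1.31 below WT. Ccl11, the other eotaxin measured, stood at -0.88 and 2.63 in WT, -1.06 and -0.19, and -1.48 and -0.45. Here both other ratios, 0.87 and 1.03, lay close together, which differs from the Ccl24 pattern. Ccl8, which binds several receptors including CCR8 in mice, had ratios of 1.90, 0.88 and 0.42. Among the receptors of the list were Ccr3, found on eosinophils, and Ccr4, found on Th2 and regulatory T cells. Their WT ratios were 1.78 and 2.11, their FcRg KO ratios 0.36 and 0.20, and their FceRIa KO ratios 0.53 and 0.65. On the HRF arrays alone, Ccr3 was not higher in WT: it stood at -0.72 there and -0.68 on the FcRg KO HRF array, and the WT PBS level of -2.50 lay below the -1.04 of the FcRg KO PBS array.

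Monocyte chemokines gave 3 members of 11 genes, with WT above both others in 9 and a median difference of 1.01. Ccl7, which draws monocytes and eosinophils, lay at -0.60 and 4.17 in WT, -1.28 and -0.87 on the FcRg KO-labelled pair, and -2.01 and 1.65 on the FceRIa KO-labelled pair. The FceRIa KO ratio of 3.66 is the highest in the set, and the WT ratio of 4.77 exceeded it by 1.11. Ccl4, a chemokine of activated macrophages and lymphocytes, had ratios of 2.15, 0.34 and 0.67, and the receptor Ccr1, at levels under -4 on every array, 1.82, 0.14 and 0.45. The difference of Ccr1 was 1.52, but it was 0.70, with a margin of 0.63, with normexp and quantile normalization. Among lymphoid chemokines, in none of the lists, Cxcl13, which guides B cells, had ratios of 3.04, -0.32 and 2.03, Ccl19, which guides T cells and dendritic cells through CCR7, 2.36, -0.30 and 1.14, and Xcl1, made by NK and CD8 T cells, 1.68, 0.36 and 0.15.

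Several of the highest chemokine and cytokine ratios in WT were outside the set because the FceRIa KO-labelled pair responded nearly as much or more. Cxcl5, a neutrophil chemokine, had ratios of 6.76 in WT, 0.95 on the FcRg KO-labelled pair and 5.93 on the FceRIa KO-labelled pair, a margin of 0.82. Il6 had ratios of 4.80, -0.28 and 4.16, and Ccl2, a monocyte chemoattractant, 4.35, -0.06 and 3.39. For Cxcl1 (4.0, -0.75 and 5.07), Cxcl10 (3.17, -0.28 and 3.63) and the acute phase gene Saa3 (3.57, 1.06 and 4.52) the FceRIa KO ratio was above that of WT. On the HRF arrays these genes were nonetheless highest in WT: Cxcl1 stood at 2.19 there and 1.06 on the FceRIa KO array, while its PBS level was -1.81 in WT and -4.0 on the FceRIa KO array. In the other direction, Arg1, an arginine-degrading enzyme of macrophages stimulated by IL-4, had ratios of 2.20, 3.14 and -0.67, and Clca1, a goblet cell protein, 2.17, 1.89 and -0.41.

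Among inflammatory cytokines, 4 of 14 genes were members, WT was above both others in 10, and the median difference was 0.68. Il1f9, which encodes IL-36 gamma of the IL-1 family, lay at -4.69 and -2.08 in WT, -3.90 and -4.37 on the FcRg KO-labelled pair, and -3.63 and -3.51 on the FceRIa KO-labelled pair. Osm, an IL-6 family cytokine made by leukocytes, stood at -4.25 and -1.97 in WT, with the other 4 levels between -4.24 and -3.97. Both had a WT HRF level that stood clear of the other HRF levels. Il1b, the fever cytokine, stood at 0.20 and 2.96 in WT, 0.93 and 0.79, and 0.93 and 2.03, so its FceRIa KO ratio of 1.10 lay between the others. Tnfsf11, which encodes RANK ligand, had ratios of 2.31, 0.30 and 0.11. The receptors of IL-1 were also members: Il1r1, which signals, had ratios of 1.26, 0.18 and 0.04, and Il1r2, the decoy, 2.41, -0.03 and -0.26.

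Cytokine signal feedback genes had WT above both others in 17 of 19 and 4 members, with a median difference of 0.50. Socs1, which blocks signalling by interferon and IL-4 receptors, lay at 0.46 and 2.68 in WT, 0.84 and 0.60 on the FcRg KO-labelled pair, and 0.36 and 0.54 on the FceRIa KO-labelled pair. Socs3, the feedback inhibitor of IL-6 family receptors whose promoter is shown above, stood at 2.96 and 5.08 in WT, 3.41 and 2.94, and 3.16 and 3.80. The levels of Socs1 were flat on both other pairs, whereas Socs3 was up by 0.63 on the FceRIa KO-labelled pair. Pim1, a kinase gene induced by STAT proteins, had ratios of 1.85, -0.32 and 0.72, and Batf3, a transcription factor of dendritic and T cells, 2.41, 0.38 and 0.77. Cish, another feedback gene, lay just outside the margin (1.21, 0.12 and 0.22).

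The list of NF-kB feedback and toll-like response genes had 5 members of 23 and WT above both others in 17 (median difference 0.61). Ptx3, a soluble pattern recognition protein, lay at -4.39 and -1.34 in WT, -4.42 and -4.52 on the FcRg KO-labelled pair, and -4.73 and -3.66 on the FceRIa KO-labelled pair. Acod1, which makes itaconate in activated macrophages, had ratios of 2.78, 0.41 and 1.21, Bcl3, a nuclear NF-kB cofactor, 1.95, -0.17 and 0.94, and Tnip3, an inhibitor of NF-kB, 1.63, 0.34 and 0.58. Ptgs2, the inducible prostaglandin synthase COX-2, stood at -1.16 and 0.64 in WT, -0.65 and -0.65, and -1.42 and -0.64. Together with Ptger4 (1.92, 0.10 and 0.63), a receptor of prostaglandin E2, it is also one of 2 members of 18 genes of the prostaglandin, leukotriene and histamine list (median difference 0.26).

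Of 15 activated and regulatory T cell genes compared, 5 were members and 10 were not. Il2ra, the high-affinity chain of the IL-2 receptor found on regulatory T cells, activated T cells and type 2 innate lymphoid cells, lay at -2.17 and 0.28 in WT, -2.17 and -2.19 on the FcRg KO-labelled pair, and -2.24 and -1.77 on the FceRIa KO-labelled pair. Tnfrsf4, the costimulatory receptor OX40, stood at 0.01 and 1.87 in WT, 0.09 and 0.14, and -0.08 and -0.01. For both genes the 3 PBS levels lay within 0.2 log2 units, and the WT HRF array alone was high. Tnfrsf18, the receptor GITR, had ratios of 1.25, 0.03 and 0.11, Il2rb, the beta chain of the IL-2 receptor, 1.03, 0.03 and -0.18, and Ikzf4, a transcription factor of regulatory T cells, 0.99, -0.09 and -0.10. The median difference of this list was 0.90, and Icos was just outside the margin. Of 18 T cell identity markers, WT was above both others in 15 (35.4% of all genes), none by 2-fold, with a median difference of 0.39, and the difference between both lists was not tested. The summed T cell level was 34.7 and 47.6 in WT, 48.5 and 45.4 on the FcRg KO-labelled pair and 32.3 and 38.2 on the FceRIa KO-labelled pair. The part of T cell number in the activation genes was not tested.

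Ifng, the signature cytokine of Th1 and NK cells, lay at -2.62 and -0.04 in WT, -3.11 and -3.03 on the FcRg KO-labelled pair, and -3.15 and -3.32 on the FceRIa KO-labelled pair. Its difference of 2.63 is 6.17-fold, and only its WT HRF level was high. Of the 18 genes compared in the list of interferon gamma chemokines and GTPases, WT was above both others in 14, and Ifng alone passed the margin; the list median difference was 0.74. On the HRF arrays, 8 of these 18 were at least 2-fold highest in WT. Gzmb, the cytotoxic granule protease granzyme B, had ratios of 1.64, 0.11 and -0.19 and was the sole member among 12 NK cell markers. Il12rb1, which encodes a chain of the IL-12 and IL-23 receptors, had ratios of 1.29, 0.07 and 0.22, but a second probe gave -0.06, 0.48 and 0.35. Of 16 type I interferon genes none was a member (0.982% of all genes). WT was above both others in 7 of these 16 (35.4% of all genes), with a median difference of 0.10.

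Venule and endothelial adhesion genes gave 3 members of 12. Ackr1, the atypical chemokine receptor that marks venules, lay at -3.38 and 0.59 in WT, -3.57 and -3.45 on the FcRg KO-labelled pair, and -3.15 and -2.06 on the FceRIa KO-labelled pair. Selp, or P-selectin, which starts leukocyte rolling, stood at -2.63 and 0.81 in WT, -2.62 and -2.72, and -2.72 and -1.67. Both were flat on the FcRg KO-labelled pair and about 1 log2 unit up on the FceRIa KO-labelled pair. Vcam1, the ligand of the integrin VLA-4 on eosinophils and lymphocytes, stood at 2.59 and 4.02 in WT, 2.69 and 2.62, and 2.50 and 2.71. The list as a whole had a median difference of 0.22, with WT above both others in 6 (35.4% of all genes). Of 12 endothelial identity markers none was a member (0.982% of all genes), and their median difference was -0.28. Sele, or E-selectin, was below background on the WT PBS array and at least 18.6-fold higher on the WT HRF array, at least 16.8-fold above the HRF array labelled FcRg KO and 8.35-fold above the one labelled FceRIa KO. P-selectin is also a platelet protein. Of the 12 platelet markers, WT was below both others in 11 (39.5% of all genes), with a median difference of -0.82. The part of platelets in the Selp levels was not tested.

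Members that act on the extracellular matrix, chosen after their values were seen, are given next. Of the 12 genes of the fibroblast and matrix marker list 0 were members (0.982% of all genes), and the median difference was -0.14. WT was above both others in 2 (35.4% of all genes) and below both in 5 (39.5%). Timp1, the inhibitor of metalloproteinases, lay at 1.91 and 5.16 in WT, 1.89 and 2.78 on the FcRg KO-labelled pair, and 1.07 and 2.33 on the FceRIa KO-labelled pair. Adamts4, a protease of proteoglycans, stood at -4.01 and -0.41 in WT, -3.74 and -3.55, and -3.85 and -1.89. Has2, which makes hyaluronan, had ratios of 2.31, 0.11 and 0.82, and Tnfaip6, which encodes a hyaluronan-binding protein induced by TNF and IL-1, 3.06, 0.18 and 1.68. A second Tnfaip6 probe gave 3.16, 0.33 and 2.06. Lama1, a laminin chain of basement membranes, had ratios of 2.46, -0.46 and -0.31, and Thbs1, a matrix protein that activates TGF-beta, 1.52, -0.03 and 0.52, the smallest margin in the set. In the list of metalloproteinases and inhibitors, Timp1 and Mmp25 were the 2 members of 13, with a median difference of 0.07.

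C-type lectins of dendritic cells and macrophages were members in a group. Cd209e lay at -4.22 and 0.86 in WT, -3.98 and -1.92 on the FcRg KO-labelled pair, and -6.11 and -3.15 on the FceRIa KO-labelled pair. All 3 HRF levels were above their PBS levels, and that of WT was highest. Cd209a stood at -0.11 and 1.85 in WT, 0.37 and 0.80, and -0.28 and 0.14, and a second probe had ratios of 1.69, 0.39 and 0.58. Cd209d had ratios of 2.38, 0.44 and 0.26, and Cd209c 1.69, 0.19 and 0.40. These genes are close relatives, and shared signal between their probes was not tested. They made up the 3 members of 12 dendritic cell markers (Cd209c was not listed), where WT was above both others in 10 and the median difference was 0.60. Pdcd1lg2, the PD-1 ligand induced by IL-4 on macrophages and dendritic cells, had ratios of 2.54, 1.45 and 0.20 and was the sole member of 13 genes of the IL-4 and IL-13 induced macrophage list (median difference 0.72).

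Among Fc receptors, Fcgr2b, the inhibitory IgG receptor, lay at -0.01 and 1.95 in WT, 0.28 and 0.72 on the FcRg KO-labelled pair, and -0.39 and 0.34 on the FceRIa KO-labelled pair. It was the sole member of 13 genes of the list. The activating receptors that pair with the gamma chain, Fcgr3 (difference 0.98), Fcgr4 (0.94) and Fcgr1 (0.92), had WT above both others but under 2-fold. Fcer1g had ratios of 0.69, 0.18 and 0.39, and Tpt1 0.11, 0.23 and 0.27. Of 24 genes compared in the list of ITAM-coupled receptors and their signalling, none was a member (0.982% of all genes). WT was above both others in 15 of these 24 (35.4% of all genes), and the median difference was 0.34. Adaptors and inhibitory receptors outside the lists included Lilrb4a (1.79, 0.24 and 0.68), Cd300lf (1.29, 0.02 and -0.29) and Dok2 (1.38, 0.27 and 0.31). A second Lilrb4a probe gave 1.62, 0.38 and 1.19, a margin of 0.43. For Cd300lf, a second probe showed the same pattern and the remaining one gave -0.11, 0.29 and -0.54.

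Several neutrophil genes were members with a low WT PBS level. Cxcr2, the receptor of the CXC chemokines on neutrophils, lay at -2.12 and 0.17 in WT, -1.30 and -1.49 on the FcRg KO-labelled pair, and -0.76 and -1.15 on the FceRIa KO-labelled pair. The WT array was lowest of the 3 after PBS and highest after HRF, and the larger part of the difference lay on the HRF arrays (1.49, against -1.09 on the PBS arrays), as it did for Il1r2 (1.47 and -1.08). S100a8, a calgranulin, stood at 3.37 and 5.05 in WT, 4.66 and 4.92, and 5.24 and 5.53. Its WT HRF level was not above the FceRIa KO one, so its difference of 1.41 lies on the PBS arrays, with a part of -0.18 on the HRF arrays. Retnlg, a neutrophil resistin-like gene, stood at 1.68 and 3.54 in WT, 3.01 and 3.06, and 2.30 and 2.82, and Stfa2l1, a stefin, had 0.07 of its difference of 1.33 on the HRF arrays. Cxcr1 and Cstdc4 had 0.54 and 0.37 of their differences of 1.38 and 1.5 on the HRF arrays.

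Over the 14 neutrophil markers compared, 5 were members and the median difference was 0.56, but its part on the HRF arrays was -0.14 and that on the PBS arrays -0.72. The WT PBS level was the lowest of the PBS levels in 9 of 14, and the WT HRF level the highest in 3. Summed neutrophil markers were 186 and 222 in WT, 205 and 244 on the FcRg KO-labelled pair, and 266 and 303 on the FceRIa KO-labelled pair. The granule genes Mpo and Camp, which neutrophils transcribe during their development, had differences of -1.20 and -0.63. Ccr3, the 1 member among 9 eosinophil markers, also had its difference divided between HRF arrays (0.65) and PBS arrays (-0.68).

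**Figure D4:**
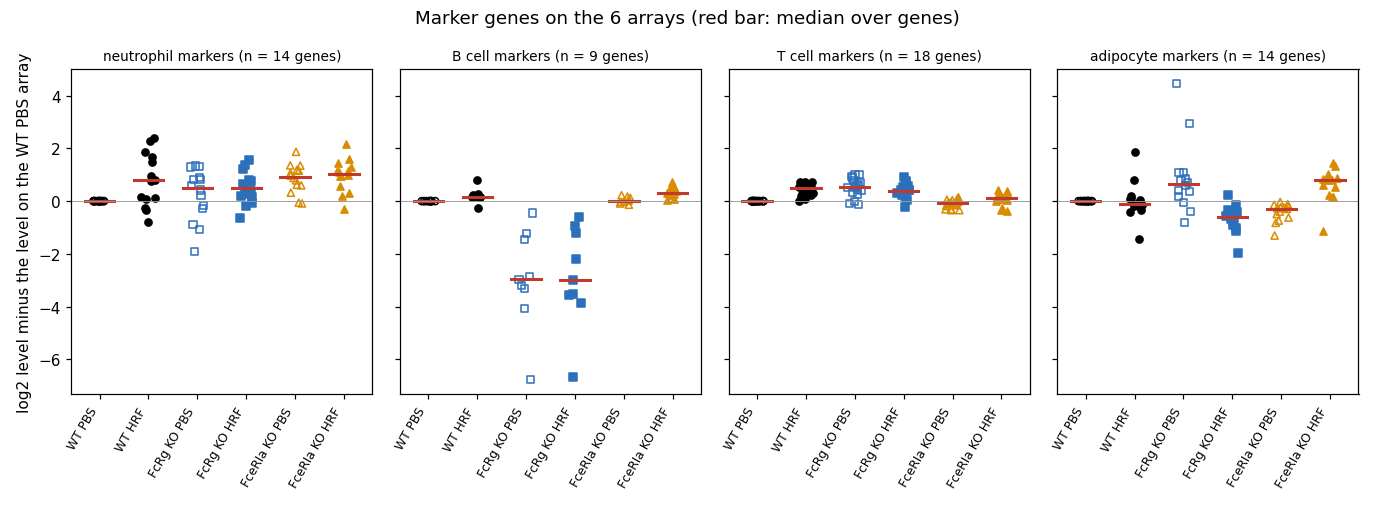
Log2 level of each marker gene on the 6 arrays minus its level on the WT PBS array, for neutrophil, B cell, T cell and adipocyte markers; each symbol is a gene and the red bar the median over genes. Neutrophil markers are mostly above 0 on the PBS arrays labelled FcRg KO (median 0.51) and FceRIa KO (0.93), B cell markers are low on both arrays labelled FcRg KO (median -2.97 on the PBS array), and adipocyte markers vary between the 2 arrays of each labelled knockout.

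The highest difference of the series, 5.57, belonged to Cyp26b1, an enzyme that degrades retinoic acid. It lay at 1.31 and 2.64 in WT, 4.69 and -0.87 on the FcRg KO-labelled pair, and 4.78 and 1.85 on the FceRIa KO-labelled pair. Both PBS arrays of the labelled knockouts were thus over 3 log2 units above WT PBS, and their ratios were -5.56 and -2.93. The part on the HRF arrays was 2.15 and that on the PBS arrays -3.42. Lrat, which stores vitamin A as retinyl ester, had the same order: 0.10 and 1.56 in WT, 1.66 and -0.07, and 1.86 and 0.72. Aldh1a3, which makes retinoic acid, differed from both: it stood at -1.74 and 2.59 in WT, -2.40 and -1.84, and -2.96 and -1.13, so that its difference of 3.14 lay on the HRF arrays (4.08). Dhrs9, a retinol dehydrogenase, had a difference of 1.20, with 0.50 on the HRF arrays.

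Enzymes of xenobiotic, sterol and amino acid metabolism were also members. Cyp1a1, the classical target of the aryl hydrocarbon receptor, lay at 0.26 and 3.55 in WT, 1.45 and 1.44 on the FcRg KO-labelled pair, and 0.88 and 0.20 on the FceRIa KO-labelled pair. Its difference was 3.63, or 12.4-fold, while Ahr itself had ratios of 0.28, 0.03 and 0.02. Cyp7b1, an oxysterol hydroxylase, had ratios of 2.0, 0.03 and 0.66, and Gpr183, the receptor of oxysterols that guides lymphocytes, 1.03, -0.18 and -0.01. Kmo, an enzyme of tryptophan breakdown, had ratios of 1.44, 0.35 and 0.37, and Gatm, which makes the precursor of creatine, 1.94, 0.44 and 0.29. A second Kmo probe gave 1.09, 0.58 and 0.39, a margin of 0.51.

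Innate sensors and acute phase genes followed. Mefv, which encodes pyrin, lay at -1.01 and 2.14 in WT, -0.71 and -0.30 on the FcRg KO-labelled pair, and -0.26 and -0.13 on the FceRIa KO-labelled pair, and a second probe had ratios of 2.54, 0.31 and 0.00. Casp4, a sensor of lipopolysaccharide, had ratios of 1.73, 0.17 and 0.66, Sting1, the adaptor of the cGAS pathway, 1.61, 0.00 and 0.42, and the Ifi200 family genes Ifi204 and Ifi211 1.5 and 2.29 in WT, with the others between 0.30 and 0.69. Serpina3f, a protease inhibitor, stood at -1.68 and 1.82 in WT, -2.58 and -1.87, and -2.86 and -1.25. It and S100a8 were the 2 members of 17 acute phase and antimicrobial genes (median difference 0.73), where WT was above both others in 8.

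Epithelial and nerve genes were few. Spdef, the transcription factor of goblet cells, lay at 0.14 and 2.04 in WT, 0.10 and 0.73 on the FcRg KO-labelled pair, and -0.12 and 0.52 on the FceRIa KO-labelled pair. Itln1, an intelectin of goblet cells, had ratios of 2.80, 1.74 and 1.05, but its WT PBS level of -2.17 lay below -1.44 and 0.52 and its WT HRF level of 0.64 below the 1.57 of the FceRIa KO array. They were the 2 members of 14 genes of the goblet cell list, where WT was above both others in 10 (median difference 0.93). Syt10, Cartpt, Slc5a7 and Phox2a, genes of neurons, had differences of 3.50, 2.29, 2.14 and 1.96. The ratios were 2.57, -1.88 and 0.01 for Syt10 and 1.26, -1.69 and -0.36 for Cartpt. They were 1.29, -1.54 and -0.16 for Slc5a7 and 2.21, 0.15 and 0.36 for Phox2a. Syt10, Cartpt and Slc5a7 thus fell on the FcRg KO-labelled pair, whose PBS array carried their highest PBS level. In the lowest of the same 4 settings Cartpt had 1.36 and Slc5a7 1.39, both with a margin just under 2-fold. The part on the PBS arrays was -2.09 for Syt10, -1.10 for Cartpt, -0.62 for Slc5a7 and -0.27 for Phox2a. Each of these 4 genes had levels below -1 on every array.

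**Figure D5:**
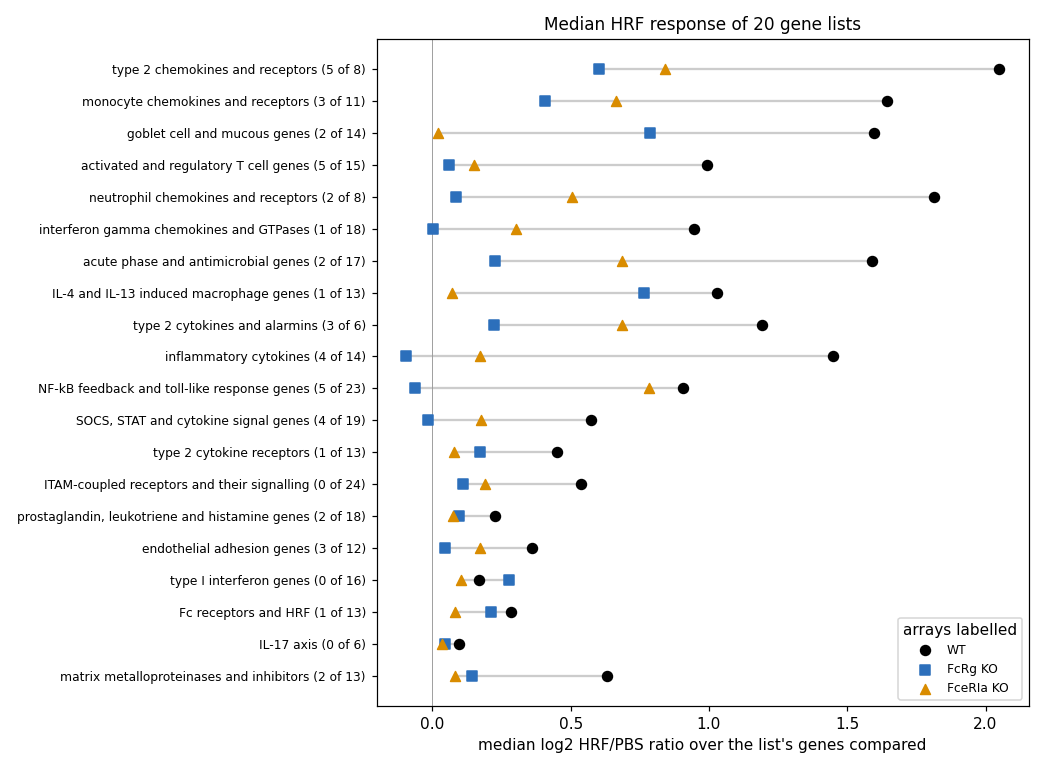
Median log2 ratio of HRF to PBS over the genes compared of each of 20 gene lists, for WT (circle), arrays labelled FcRg KO (square) and FceRIa KO (triangle), ordered by median difference of responses; in brackets, the members of the 154 among the genes compared. The WT median is rightmost in every list except type I interferon genes, and the difference is largest for type 2 chemokines (1.30).

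Over the lists, all 20 pathway lists had a median difference above 0, from 0.07 to 1.30, and 3 of them held no member: type I interferon genes, ITAM-coupled receptors and the IL-17 axis. Of the IL-17 axis, 6 of 12 genes on the array were compared (median difference 0.08, and 0.81 where 1 array above background sufficed), and Il17a and Il17f were not well above background on all arrays. Il17a stood at -6.35 and -1.05 in WT and Il17f at -5.92 and -1.53; on the WT HRF array Il17a was at least 44.3-fold above the HRF array labelled FcRg KO and 12.8-fold above the HRF array labelled FceRIa KO. Of 31 marker lists, 25 held no member, with median differences from -0.82 for platelets to 0.39 for T cells. Members made up 0.982% of all genes, so a short list without a member says little about its cell type or pathway. The lists were drawn up with earlier results of these data known, and 54 of the 154 members are in a list while 100 are in none.

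Genes that could not be compared were described by bounds. They entered by being well above background on the WT HRF array, which favours a high level there. No matching count was made from the other HRF arrays. Of 1108 genes well above background on the WT HRF array but not on all 6 arrays, 33 were at least 2-fold up in WT and at least 2-fold above both other HRF arrays. Besides Il13, Il17a, Il17f and Sele they include Ccl1, a ligand of CCR8, 5.71-fold up in WT, Il2 (7.70-fold), Ctla4, a T cell inhibitory receptor (5.02-fold), Csf3, the neutrophil growth factor (8.20-fold), Il21 (at least 7.37-fold) and Il10 (3.70-fold), all chosen after their values were seen. For 7 genes the bounds fix a difference of at least 2-fold from both other ratios, Nefl, Pax1, Otor, Prrt3, Ctnna2, Prok2 and BC030500, and their WT HRF levels lay between -5.71 and -4.12.

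At the edge of the margin, Thbs1, Samsn1, Il2rb and Adra2a were just inside, with WT ratios 1.0, 1.0, 1.01 and 1.01 above the next, and Icos, Loxl4, Cish and Gpr65 just outside, at 1.0, 0.99, 0.99 and 0.99. Of the 154 members, 34 (22.1%) had a mean level under -3, against 16.7% of all genes.

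The 80 genes further down in WT than on both other pairs depended on the processing: 13 of them were past the margin with normexp and quantile normalization, 17 had a mean level above -3, and 40 were past it with scaling on the median. The WT PBS array had 79.6% of its spots well above background, against 67.5% to 74.6% on the other 5 arrays, and the part of this in the lower genes was not tested. Their median difference was -1.45, of which -0.51 lay on the HRF arrays and 0.90 on the PBS arrays. The WT PBS array carried the highest PBS level for 73 of the 80, against 5528 of all 15679 genes. It was at least 2-fold above both others for 25 (0.421% of all genes). A mean level under -3 was seen for 63 (78.8%), against 16.7% of all genes. Oxct2b, a ketone body enzyme gene of testis, lay at -2.21 and -3.91 in WT, -6.06 and -3.58 on the FcRg KO-labelled pair, and -4.44 and -3.95 on the FceRIa KO-labelled pair. The next were Rxfp3 (-3.17), Dnajb8 (-3.13), Dsg1c (-2.76), Kif12 (-2.54), Itpripl1 (-2.43), Papln (-2.40) and Neurod2 (-2.34). The first 5 of these 8 and Papln had similar levels on the 3 HRF arrays, and their WT PBS level stood clear of the other PBS levels. A brighter lower gene, Zbtb16 (-2.16), stood at 3.35 and 0.76 in WT, -0.08 and -0.15, and 2.88 and 2.08. Of 13 circadian clock genes, WT was below both others in 11 (39.5% of all genes), with a median difference of -0.57. In 11 of the 13 the WT PBS level was the highest PBS level. The part of clock state in the differences was not tested.

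The 154 members were partly neighbours on the chromosomes. Within 500 kb of another member lay 46 of them (29.9%), and within that distance of a member 1674 of all 15679 genes compared. These groups were Ccl7, Ccl11 and Ccl8, Il4 and Il5, and Slfn1, Slfn4 and Ccl4 on chromosome 11, Ccr1, Ccr3, Ccr9 and Ccr1l1 on chromosome 9, Cd209a, Cd209c, Cd209d and Cd209e on chromosome 8, Tnfrsf4 and Tnfrsf18 on chromosome 4, Klk1, Klk1b5 and Klk1b27 on chromosome 7, and Cxcr1 and Cxcr2, Il1r1 and Il1r2 on chromosome 1, among others. Members near the targeted genes were Ackr1, 1 of 6 genes compared within 500 kb of Fcer1a, and Adamts4, Fcgr2b and Itln1, 3 of 35 within 500 kb of Fcer1g. Members made up 0.982% of all genes compared, and the part of position near the targeted genes was not tested. Families of near copies such as Klk1b, Slfn and Cd209 may share probe signal.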

How the data were processed

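Agilent Feature Extraction 10.7.3.1 read the spots, per the file headers; the deposited processed signal is a background-subtracted intensity, not scaled between arrays. Main values were its log2, less that of the array's 75th percentile. Each array held 59305 spots other than controls, of which 67.5% to 79.6% were well above background and none saturated; outlier spots were left out. Of 55681 probes, 26056 were named through RefSeq accessions (GRCm38.p6), giving 19752 genes; 29625 stayed unnamed. The probe with the highest mean stood for a gene, and no coordinates of the array's mm9 design were used. The authors' deposited value table holds log2 values of unstated centring; differences between its columns followed the scanner values with slopes of 0.999 to 1.00, and its columns had medians of 0.1 (WT PBS) and 0 (all others). Normexp (offset 50) used the deposited median spot and background intensities, since no mean signal was held.

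Limma 3.58.1 in R 4.3.3 was tested on simulated data; other steps used Python 3.11.15. Members, lists and tests were chosen with earlier results of these data known. Named were the 25 highest and 8 lowest differences, up to 5 genes per list (20 pathway and 31 marker lists), up to 8 genes by bounds, 4 genes on each side of the margin, and Fcer1g, Fcer1a, Ms4a2 and Tpt1, and further members where their role is described. Alternatives were other scaling, background correction, filters, probes, margins, each labelled knockout alone, and 2 added after the data were seen. Ms4a2 stayed below that threshold on all arrays. Arrays limit the precision by their number.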

Additional observations from a re-analysis of the deposited data

Results flagged for a closer look

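Cyp26b1 (difference of responses 5.57) and Lrat (2.90) drew attention because WT moved at least 2-fold up with HRF and both labelled knockouts at least 2-fold down; with 1 array per group, this difference was not tested. Outside the named genes, 61 of 14889 unnamed probes above background on all arrays (0.41%) had a WT ratio at least 2-fold above both others, against 299 at least 2-fold below both. Groups held 1 array each, so none could be examined for an outlying sample.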

How the results depend on the processing

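The counts of genes at least 2-fold above and below both others were 154 and 80. They were 243 and 40 after median scaling, 125 and 13 after normexp, 165 and 90 with the deposited value table, 223 and 437 where 1 array above background sufficed, 283 and 754 with no filter, 120 and 17 for a mean above -3, 148 and 80 with the mean over probes, 426 and 320 against the pair labelled FcRg KO alone, 235 and 230 against that labelled FceRIa KO alone, 37 and 16 at a 3-fold margin, and 452 and 457 at 1.5-fold. Chosen after seeing the data, the HRF arrays alone gave 159 and 28, sharing 87 and 10 with the main sets, and a margin also required on the HRF arrays gave 87 and 10. All 154 genes had WT above both others with median scaling, normexp, the value table and the probe mean, and 112 kept the 2-fold margin in all 4. The 154 were chosen by that margin on the same arrays, so this is no separate check. Limma called 0 genes in every alternative run, with a lowest adjusted p between 0.115 and 0.569. Of named-gene values, 2535 stayed within 1.5-fold of the main value and 174 moved further. A turn of direction was counted only from a main difference of at least 2-fold, and 11 values turned. On the HRF arrays alone these were Dsg1c 0.01, Kif12 0.03, Itln1 -0.3 and S100a8 -0.18. Against the pair labelled FceRIa KO alone they were Cxcl1 -1.07, Cxcl10 -0.46, Cxcl9 -0.61, Orm2 -0.57, Saa1 -0.04, Cidea -0.29 and Ucp1 -2.93. Of list medians, 355 stayed and 2 moved, the type 2 cytokines to 0.08 for a mean above -3 and the IL-17 axis to 0.81 where 1 array sufficed. The cause was not tested. Of 21 other probes of 19 members, 17 had WT above both others and 12 at least 2-fold; the exceptions were Cd300lf, Il12rb1, Il4ra and Tll1. No paired analysis was possible because each group has 1 array and the labels give no replicate numbers. Low signal limits the 1108 genes given by bounds, and with 1 array per group no ratio has an error.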
